A study of Mus musculus with 2 samples.

Results

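H3K9me2 peaks in the gene-dense parts of the mouse genome were examined: peaks whose midpoint lay in an autosomal bin of 1 Mb with at least 15 protein-coding genes, and more than 1 kb from either end of any coding gene. Olfactory (Olfr) and vomeronasal (Vmn1r, Vmn2r) receptor genes, which stand in large arrays, were not counted toward the 15, although peaks beside them in such a bin were kept. Bins were cut from the first base of each chromosome, and genes were placed by their midpoints in the RefSeq annotation of GRCm38.p6, the assembly behind mm10. Of the 2413 autosomal bins, 404 met the rule, and they held 10049 of the 20558 autosomal coding genes (48.9%). They contained 1052 of the 31810 peaks of the wild-type (WT) library (3.31%) and 1085 of the 32347 peaks of the knockout (KO) library (3.35%), together 2137 of 64157. A further 115 WT and 125 KO peaks in these bins lay within 1 kb of a coding gene end and were not members.

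The study profiled H3K9me2, dimethylation of lysine 9 of histone H3, by CUT&Tag, in which an antibody guides a transposase that cuts and tags the chromatin around the mark. The cells were activated B cells of C57BL/6 mice, 1 library labelled WT and 1 labelled jmjd1c B KO. How the cells were activated, how the knockout was made, the age of the mice and how many mice or cultures entered each library were not given in the sources used here. The peak lists rested on 33474010 WT and 34502392 KO tags. Jmjd1c itself lay in a bin with 6 coding genes, outside the gene-dense bins. Peaks of H3K9me2 could not show whether the knockout had worked, wherever the gene lay. Each genotype had 1 library, so the values of WT and KO could not be set against a spread between replicates and are given without p-values. All intervals are 95% intervals for counting error only. Neighbouring peaks are not independent, so intervals of densities and shares are too narrow, and many sites were in both lists, which the KO to WT intervals ignore.

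H3K9me2 is laid down mainly by the G9a and GLP methyltransferases and removed by jumonji-domain demethylases, the family to which Jmjd1c belongs. It is a mark of silent chromatin that can spread over broad domains, typically in gene-poor regions at the nuclear periphery, while gene-dense regions mostly hold transcribed chromatin that lacks it. Gene-dense sequence also holds arrays of duplicated genes used in a single tissue, such as those of placenta, skin or exocrine glands, many of which B cells do not use.

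The rule leaves out peaks with a midpoint within 1 kb of a coding gene end, so few members can reach the promoter at an outer gene start. Of 12712 RefSeq promoters of 300 bases in the gene-dense bins, 3798 had their midpoint in eligible sequence, more than 1 kb from those ends. Members touched 0 of the other 8914 and 8 of the 3798 (0.211%, exact interval 0.0910 to 0.415%), 4 at coding genes and 4 at long noncoding RNA (lncRNA) genes. In WT 4 were touched, in KO 6, and 2 in both, at Tcaf1 and 4930467E23Rik. The 4 promoters of coding genes are shown because they are the only coding starts that a member reached. All 4 belong to starts inside the annotated gene, more than 1 kb from its outer start, which the rule bars. Each runs 5′ to 3′ on the strand of its gene, from 250 bases before to 50 after the RefSeq start (GRCm38.p6). Capitals mark the bases inside a member of either library.
4930467E23Rik (chr8:19729326-19729625, plus strand): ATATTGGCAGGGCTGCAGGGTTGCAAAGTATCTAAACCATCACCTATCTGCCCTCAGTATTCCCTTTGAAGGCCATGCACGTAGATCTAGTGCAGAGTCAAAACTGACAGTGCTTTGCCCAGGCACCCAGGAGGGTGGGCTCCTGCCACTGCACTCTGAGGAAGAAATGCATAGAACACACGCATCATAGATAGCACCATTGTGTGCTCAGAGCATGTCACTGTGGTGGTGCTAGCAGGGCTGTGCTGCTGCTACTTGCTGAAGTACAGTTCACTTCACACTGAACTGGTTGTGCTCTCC
Tcaf1 (chr6:42693051-42693350, minus strand): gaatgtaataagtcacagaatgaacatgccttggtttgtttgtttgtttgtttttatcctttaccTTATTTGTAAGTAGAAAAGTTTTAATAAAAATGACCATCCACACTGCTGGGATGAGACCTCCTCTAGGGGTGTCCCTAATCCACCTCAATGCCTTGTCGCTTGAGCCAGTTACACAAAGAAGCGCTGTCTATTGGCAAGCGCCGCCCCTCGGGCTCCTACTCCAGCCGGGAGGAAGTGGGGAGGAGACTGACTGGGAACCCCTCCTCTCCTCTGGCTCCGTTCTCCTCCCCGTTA
Prl3c1 (chr13:27198653-27198952, plus strand): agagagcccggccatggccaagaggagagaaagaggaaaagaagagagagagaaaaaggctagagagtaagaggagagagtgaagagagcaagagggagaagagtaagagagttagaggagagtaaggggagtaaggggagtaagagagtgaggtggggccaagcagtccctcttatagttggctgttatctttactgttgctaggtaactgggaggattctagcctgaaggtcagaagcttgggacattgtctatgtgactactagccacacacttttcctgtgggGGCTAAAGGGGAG
Phldb2 (chr16:45844329-45844628, minus strand): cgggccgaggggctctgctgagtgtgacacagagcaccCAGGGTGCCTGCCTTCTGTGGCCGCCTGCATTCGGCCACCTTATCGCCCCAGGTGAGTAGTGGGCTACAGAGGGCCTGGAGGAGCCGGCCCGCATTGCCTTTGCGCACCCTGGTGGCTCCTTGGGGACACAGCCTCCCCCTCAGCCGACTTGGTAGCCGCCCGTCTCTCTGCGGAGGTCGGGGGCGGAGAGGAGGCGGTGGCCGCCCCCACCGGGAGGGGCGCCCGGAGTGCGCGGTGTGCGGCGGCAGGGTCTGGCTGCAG

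The clone-named gene 4930467E23Rik, which lies beside beta-defensin genes, had all 300 promoter bases inside peaks of both libraries. The WT peak there ran from 19728702 to 19730221 and the KO peak from 19728836 to 19730226. The same 300 bases occur in 3 promoters of the table, the others being those of Gm15319 and Gm21119 further along chromosome 8, so the reads behind these peaks could come from any copy. At Tcaf1, which encodes a factor associated with the cold-sensing channel TRPM8, 235 bases lay in a WT peak and 27 in a KO peak. At Prl3c1, a gene of the prolactin family, only the last 13 bases lay in a KO peak, and no WT member reached them. At Phldb2, which encodes a pleckstrin homology-like protein of the cell cortex, 262 bases lay in a KO peak with a fold enrichment of 2.56, below the lower quartile of the KO members (2.86). This promoter was the most GC-rich of the 8, with 71.7% G and C and 23 CpG dinucleotides. The other 3 coding promoters had 49.0 to 51.3% G and C and 1 to 8 CpG. Over the 8 promoters the medians were 50.2% and 3 CpG, beside 52.7% and 5 CpG over the 3798 in eligible sequence.

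H3K9me2 peaks were sparse in the gene-dense bins. Eligible sequence, that more than 1 kb from coding gene ends, made up 368 Mb there and 1959 Mb in the other autosomal bins. The WT library had 2.86 members per Mb (2.69 to 3.04) against 14.2 peaks per Mb in the other eligible sequence (14.1 to 14.4). The KO library had 2.95 (2.77 to 3.13) against 14.5 (14.3 to 14.7). The ratio of gene-dense to other density was 0.201 in WT (0.189 to 0.214) and 0.203 in KO (0.191 to 0.216).

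From 1 coding gene upward, density was lower in each broader class of bins with more coding genes, but it did not fall at the threshold itself. Bins with 0 coding genes held 17.3 WT and 17.5 KO peaks per Mb, below the next class. Bins with 1 to 4 coding genes held a WT density of 18.7 and a KO density of 19.2 peaks per Mb, and those with 5 to 9 held 10.9 and 11.1. In bins with 10 to 14 the densities were 5.11 and 5.02. Just outside the rule, bins with 13 or 14 genes had 4.90 in WT and 4.55 in KO. Just inside it, bins with 15 or 16 genes had 5.16 and 5.37, slightly higher, with overlapping intervals in both libraries. Within the rule, density was 3.65 in WT and 3.75 in KO in the 187 bins with 15 to 19 genes. In the 130 bins with 20 to 29 genes it was 2.31 and 2.60. The 87 bins with 30 or more genes had 1.88 (1.58 to 2.21) and 1.62 (1.35 to 1.94), and 69.0% of them had no peak.

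The members stood in few bins. Of the 404 gene-dense bins, 240 held no member of either library (59.4%, exact interval 54.4 to 64.2%), and 238 of these had no peak of any kind. The 26 fullest bins together held 50% of all members, and the 10 fullest held 570 (26.7%). Members of both libraries stood in 136 bins, while 9 bins had WT members only, at most 2 each, and 19 had KO members only, at most 4 each. Bins with 10 or more members, 70 in all, held 1799 of the 2137. They had a median of 18 coding genes, beside 22 in bins with none. Coding genes in them were shorter, with a median of bin medians of 10.5 kb against 16.4 kb, and gene bodies took up a median of 40.7% of the bin against 64.8%. On average 13.9% of their coding genes had only a predicted or clone name (Gm, Rik or LOC), against 3.82%. The 2 bins flanking them held a median of 24 coding genes and 35.5 peaks, against 33 genes and 3.5 peaks around the bins without members. These properties were compared after the bins had been sorted by their members, and they are given with no test.

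**Figure D1:**
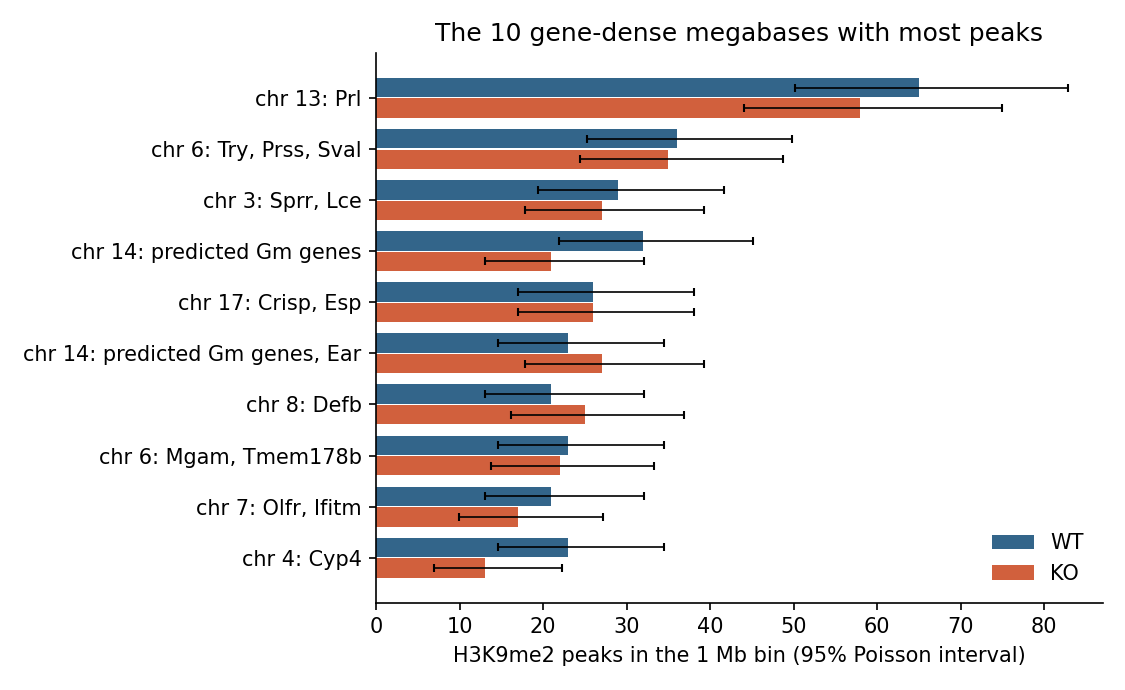
Number of WT and KO members (horizontal axis, peaks) in the 10 gene-dense 1 Mb bins with the most members, each named by its chromosome and leading genes, with 95% Poisson intervals. The bin of prolactin genes on chromosome 13 holds 65 WT and 58 KO members, and the tenth bin, of Cyp4 genes, 23 and 13.

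The fullest bin was the prolactin gene array. The bin on chromosome 13 from 27000001 to 28000000 held 65 WT and 58 KO members, and all of its 21 coding genes belong to the prolactin family, hormones made in the pituitary and, for most members in the mouse, in the placenta. Only 6 WT and 3 KO peaks lay inside a gene body, and the others stood between the genes. Prl2c1, the last gene of the array inside the bin, had 15 WT and 10 KO members in or nearest to it. Prl7d1 had 5 in each library, Prl7c1 had 5 in WT and 4 in KO, and Prl2a1 had 5 and 3. Prl itself, the pituitary hormone gene, had 3 and 1. Prl3c1 had 0 WT and 3 KO members, and Prl8a2 had 0 and 2. Of the 65 WT members, 33 shared 1 bp or more with a KO peak, and of the 58 KO members 32 did so with a WT peak. The median fold enrichment over the authors' local background was 2.76 in WT and 2.96 in KO, close to that of all members.

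**Figure D2:**
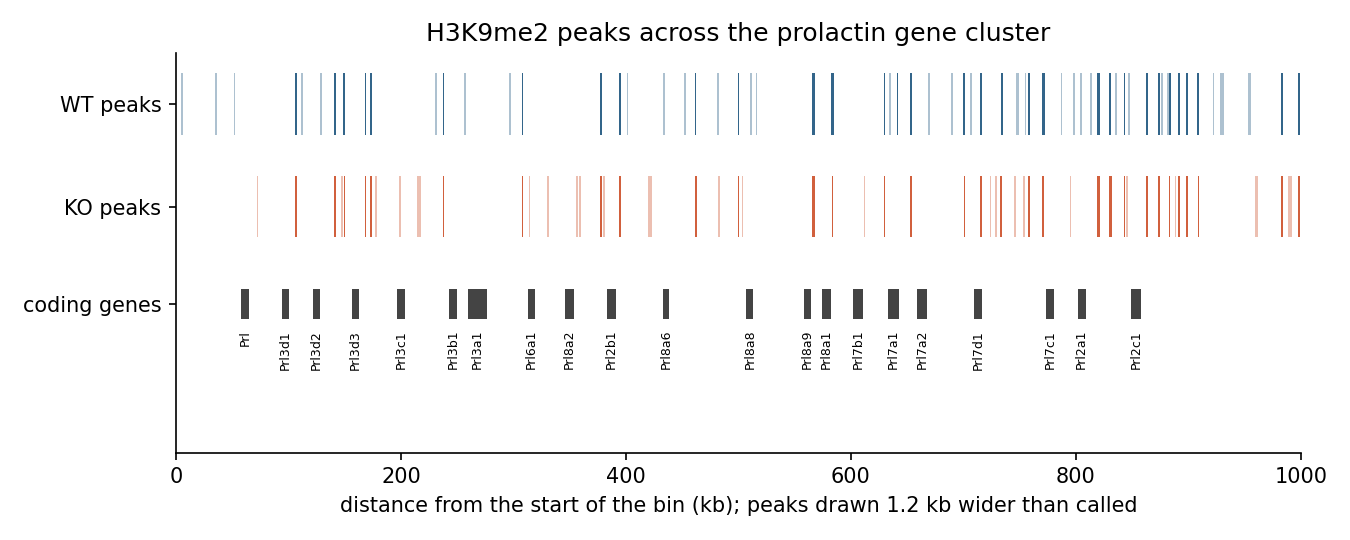
Map of the 1 Mb prolactin bin on chromosome 13, with distance from the start of the bin on the horizontal axis (kb), WT peaks, KO peaks and coding genes in rows. Dark marks are peaks overlapped by a peak of the other library and light marks are not; the 65 WT and 58 KO peaks stand mainly between the genes.

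The next fullest bins held secreted protein genes of pancreas, glands and skin. The bin on chromosome 6 from 41000001 to 42000000 had 36 WT and 35 KO members. It holds trypsin precursor genes of the exocrine pancreas, which stand inside the T cell receptor beta locus. Try4, Try5 and Try10 had 10 WT and 8 KO members in or nearest to them, Prss1, Prss2 and Prss3 had 4 and 4, and Sval1, Sval2 and Sval3, genes of secreted proteins related to prolactin-induced protein, had 6 and 6. The span of annotated T cell receptor beta segments, from 40891296 to 41558371, held 16 WT and 18 KO members of this bin and the one before it. The bin on chromosome 3 from 92000001 to 93000000 had 29 and 27 members and 42 coding genes, most of them of the skin barrier. The 14 Sprr genes, for small proline-rich proteins of the cornified cell envelope, had 12 members in each library, of which Sprr2a1 had 5 in each. The 20 Lce genes of the late cornified envelope had 4 in WT and 5 in KO. Lor and Ivl, for the envelope proteins loricrin and involucrin, had 2 and 2, and 2 and 1.

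Further full bins held reproductive, antimicrobial and digestive genes. On chromosome 17 from 40000001, 26 WT and 26 KO members stood among Crisp genes, for cysteine-rich secretory proteins of the male tract, and Esp genes, for peptides secreted by exocrine glands. The 3 Crisp genes had 11 members in each library, 7 of them at Crisp1, and the 6 Esp genes had 7 in WT and 10 in KO. On chromosome 8 from 19000001, 21 WT and 25 KO members lay in the beta-defensin array. Most were in or nearest to the clone-named genes 4930467E23Rik (8 and 11) and 9530057J20Rik (7 and 9), while the 12 Defb genes, for antimicrobial peptides of epithelia, had 5 and 4. On chromosome 6 from 40000001, there were 23 WT and 22 KO members. Mgam, the maltase-glucoamylase of the intestine, had 13 and 11 of them, and Tmem178b, a long transmembrane protein gene, had 10 and 9. On chromosome 4 from 115000001, the Cyp4 genes, for fatty acid hydroxylases of the cytochrome P450 family, had 23 WT and 13 KO members. On chromosome 7 from 140000001, the 19 Olfr genes of the bin had 17 and 13 of its 21 and 17 members, while the 3 Ifitm genes there, interferon-induced antiviral genes, had none.

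Predicted gene arrays on chromosome 14 filled the remaining 2 of the 10 bins. The bin from 7000001 had 32 WT and 21 KO members, and 89.5% of its coding genes had only predicted names. The bin from 43000001 had 23 and 27 members, with 81.3% predicted names beside Ear1 and Ear10, eosinophil-associated ribonuclease genes. The authors' treatment of reads that fit several near-identical copies was not given in the sources used here, so counts in multigene arrays are uncertain. When the 9 bins in which at least 50% of coding genes had such names were left out, the WT density ratio was 0.186 and the KO ratio 0.187.

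Runs of same-named genes carried much of the signal, a comparison added after the data were seen. A run was 4 or more neighbouring coding genes with the same symbol stem, with genes of only predicted or clone names skipped and 1 other gene in between allowed. Named runs other than Olfr and Vmn runs made up 9.07% of the eligible gene-dense sequence and held 270 WT members (25.7%) and 254 KO members (23.4%). Their density was 8.09 per Mb in WT (7.15 to 9.12) and 7.61 in KO (6.70 to 8.61). It was 3.46 times that of the other gene-dense sequence in WT (3.005 to 3.98) and 3.07 times in KO (2.65 to 3.53). Without the prolactin bin these ratios were 2.75 and 2.43, and with predicted or clone-named runs taken out of the named runs that enclose them they were 3.27 and 2.81, with 254 WT and 233 KO members left. Olfr and Vmn runs took 1.74% of the sequence and held 161 and 155 members, at 25.1 per Mb in WT and 24.2 in KO. Predicted or clone-named runs took 1.62% and held 98 and 108, at 16.4 and 18.1 per Mb. The remaining 87.6% held 523 WT and 568 KO members, at only 1.62 per Mb in WT (1.49 to 1.77) and 1.76 in KO (1.62 to 1.91).

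**Figure D3:**
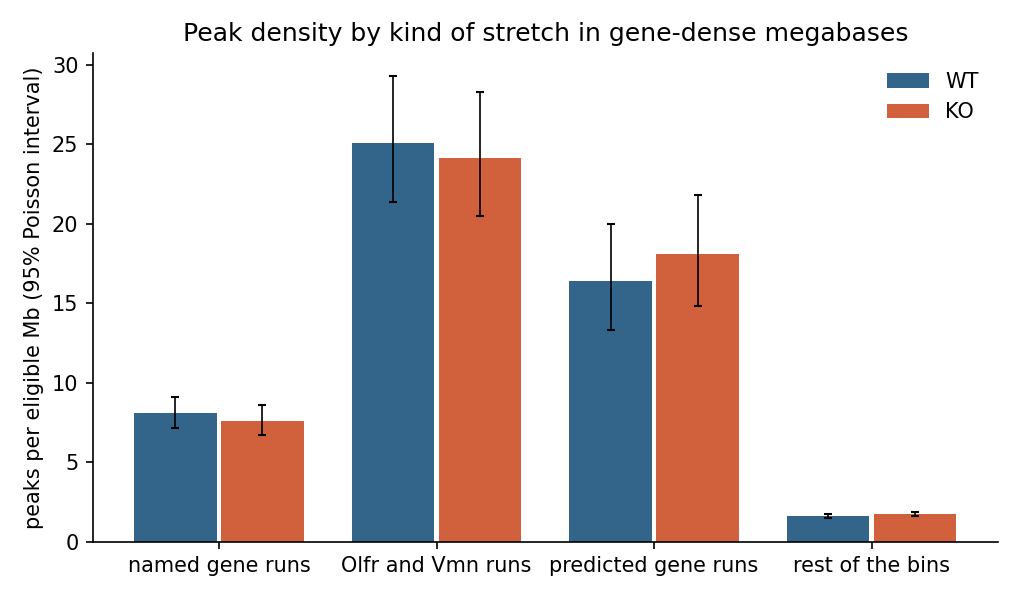
Members per Mb of eligible sequence (vertical axis, with 95% Poisson intervals) in WT and KO for named runs, Olfr and Vmn runs, predicted or clone-named runs and the rest of the gene-dense bins. Olfr and Vmn runs stand at 25.1 and 24.2 per Mb and the rest at 1.62 and 1.76.

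Which runs held peaks differed from family to family. Of the 137 named runs, 52 held a member and 85 held none. After the prolactin run, the beta-defensin run on chromosome 8 (19 WT and 23 KO members) and the Cyp4 run (23 and 13) held most. A stretch of 5 clone-named or predicted genes enclosed by this beta-defensin run held 15 of its WT and 20 of its KO members. The Ces2 to Ces4 carboxylesterase run on chromosome 8 had 9 and 12. The Klra run on chromosome 6, of natural killer cell receptors of the Ly49 family, had 10 and 9. The Hsd3b run on chromosome 3, for steroid-synthesising dehydrogenases, had 10 and 6. The protocadherin alpha run, for neuronal adhesion proteins, had 9 in each library, and the protocadherin beta run 8 and 7. The Psg run on chromosome 7, for pregnancy-specific glycoproteins, had 3 and 7, and the casein run on chromosome 5, for milk proteins, 4 and 4. In contrast, no member of either library stood in the 26-gene keratin run on chromosome 15, the 23-gene Zfp run on chromosome 13 or the 21-gene Ms4a run on chromosome 19, which includes the B cell gene for CD20. The keratin runs of 15 and 12 genes on chromosome 11, the 12-gene Clec run on chromosome 6, the 12-gene protocadherin gamma A run, the 12-gene Apol run on chromosome 15 and the 11-gene Cd300 run on chromosome 11 held none either. Beta-defensins stood on both sides, since the 11-gene Defb run on chromosome 2 held none.

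Families counted by symbol over all gene-dense bins gave the same mixture. Of 242 Zfp zinc finger genes, 15 had a member in or nearest to them, with 22 WT and 19 KO members. Of 56 Cyp genes 18 did, with 29 and 21, and of 17 Klr killer lectin-like receptor genes 8 did, with 17 and 19. Serpin protease inhibitors had 12 of 29 genes with a member, and Tas2r bitter taste receptors 7 of 24. Keratin and keratin-associated genes had 10 of 111, Slc transporters 8 of 182, H2- histocompatibility genes 4 of 33, Ugt glucuronosyltransferases 3 of 17 and Ceacam genes 1 of 11. Over all coding genes of the bins, 643 had a member in or nearest to them, 363 of them in both libraries.

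Listed genes of the B cell programme held no members, and nearly all genes of the other lists held none either. Of the 14 B cell identity genes in gene-dense bins, 0 had a WT or KO member in the body or within 2 kb of it, and the same was found for 11 genes of B cell activation and plasma cells, 13 H3K9 methylation enzyme and reader genes and 14 housekeeping genes. Lists of other cell types gave nearly the same picture. Neuronal genes (8) and T cell and innate lymphoid genes (12) had 0, and of 14 myeloid genes only Adgre1, which encodes the macrophage marker F4/80, had a member, 1 in each library. Beside 59.4% of all gene-dense bins, no member stood in 9 of the 14 bins of B cell identity genes, 6 of 11 of activation and plasma cell genes, 7 of 12 of H3K9 enzyme and reader genes and 7 of 14 of housekeeping genes. The numbers were 7 of 10 for T cell and innate lymphoid, 3 of 5 for neuronal and 4 of 13 for myeloid genes. Members in gene bodies were rare throughout: 225 coding genes had one, in bins that held the midpoints of 10049 coding genes. The rule also bars peaks within 1 kb of a coding gene end, which takes up part of the window searched around each gene. With so few genes per list, counts of 0 do not show that B cell genes in particular lack members.

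Within these bins, members were densest far from the ends of coding genes. The median distance to the nearest coding gene end was 14.5 kb in WT and 13.9 kb in KO, beside 10.7 kb over the eligible sequence. From 1 to 5 kb the density was 2.30 per Mb in WT and 2.43 in KO, and from 20 to 50 kb it was 2.74 and 2.77. It was 4.18 and 4.26 from 50 to 100 kb, and beyond 100 kb it reached 10.7 in both libraries (8.82 to 12.8), with 115 members each. Sequence beyond 100 kb made up 2.92% of the total, and the members in it lay in 39 bins. Bins with such sequence but no member there were not counted. Of the 115 members there, 31 in each library lay inside a coding gene body. These distant members were led by those at Tmem178b (7 WT and 8 KO), at Cd109, a surface glycoprotein gene (8 and 6), and at Sstr4, a somatostatin receptor gene (7 and 5).

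**Figure D4:**
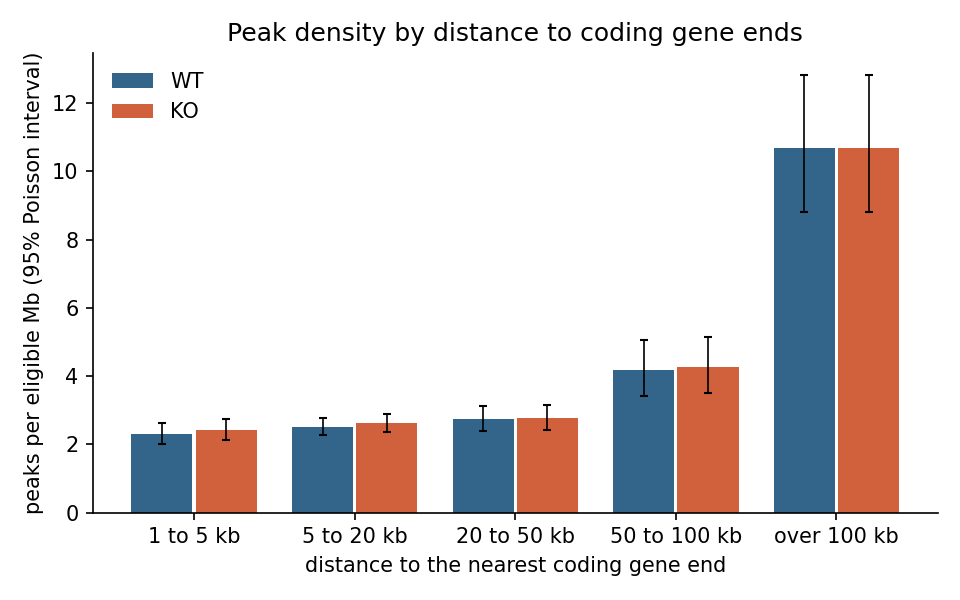
Members per Mb of eligible sequence (vertical axis, with 95% Poisson intervals) by distance to the nearest coding gene end (horizontal axis, kb) in WT and KO. Densities lie between 2.30 and 4.26 up to 100 kb and at 10.7 in both libraries beyond it.

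Gene bodies held fewer members than the sequence between genes. In WT 305 members (28.99%, 26.3 to 31.8%) and in KO 307 (28.3%, 25.6 to 31.1%) had their midpoint in a coding gene body, although bodies made up 57.8% of the eligible sequence. Density in bodies was 1.43 per Mb in WT and 1.44 in KO, and between genes 4.80 and 5.003. The ratio was 0.299 in WT (0.261 to 0.342) and 0.289 in KO (0.252 to 0.330). In the other autosomal bins it was 0.674 (0.657 to 0.692) and 0.679 (0.662 to 0.697), so bodies and the sequence between them differed more in density in gene-dense bins.

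The bodies with most members belonged to few genes. Sfi1, for a centrosome-associated protein of spindle assembly, on chromosome 11 from 3131850 to 3203347, had 10 in WT and 16 in KO. Tmem178b had 10 and 9 and Mgam 10 and 7. The ABC transporter gene Abca16 on chromosome 7 and Ano2, a calcium-activated chloride channel gene on chromosome 6, had 6 in each library. Grik1, for a kainate receptor subunit, had 7 and 5, and Grid1, for a delta-type glutamate receptor subunit, 5 and 5. The genes 4930467E23Rik (5 and 7), 9530057J20Rik (5 and 6) and Gm5622 (4 and 6) completed the first 10. Grid1 is 763 kb long with its midpoint outside the gene-dense bins, and only its part inside them counted.

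Pseudogenes were hit more often than their share of sequence. In WT 72 members (6.84%, 5.39 to 8.54%) and in KO 54 (4.98%, 3.76 to 6.44%) lay in an annotated pseudogene, which took up 1.64% of the eligible gene-dense sequence. Among the other autosomal peaks the shares were 1.66% and 1.61%, beside 1.07% of sequence. Annotated lncRNA genes held 65 WT members (6.18%, 4.80 to 7.81%) and 80 KO members (7.37%, 5.89 to 9.09%), beside 7.76% of the sequence. No annotated coding gene, lncRNA gene or pseudogene covered 59.5% of WT and 61.2% of KO members, although only 35.6% of the eligible sequence was free of them. No member overlapped an annotated microRNA hairpin. Members covered only 0.163% of the eligible sequence in WT and 0.134% in KO, so this absence does not show avoidance.

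As single peaks, members looked like peaks elsewhere. The caller had set its fragment length d to 292 bp in WT and 189 bp in KO, which is the smallest possible peak width, so widths, pileups and folds were read only within a list. The median width was 484.5 bp in WT, beside 487 bp for the other autosomal peaks, and 369 bp in KO, beside 376 bp. The median fold enrichment, the authors' value, was 2.74 beside 2.70 in WT and 3.11 beside 3.06 in KO. The median pileup, the height in extended tags, was 24.6 beside 25.7 in WT and 18.6 beside 19.4 in KO. Peaks of 1 kb or wider made up 9.13% of WT members (7.45 to 11.0%), beside 8.17% elsewhere, and 5.07% of KO members (3.84 to 6.55%), beside 4.92%. A q of 1e-05 or lower was reached by 13.7% of WT members (11.7 to 15.9%), beside 13.05%, and by 10.2% of KO members (8.49 to 12.2%), beside 8.17% (7.85 to 8.49%). Consecutive members of a chromosome had a median distance of 23.99 kb in WT and 25.3 kb in KO, beside 18.4 and 18.5 kb for other peaks.

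A few members were far higher than the rest and stood at the same places in both libraries. A pileup of 100 or more was reached by 12 WT members (1.14%, 0.591 to 1.98%, beside 0.416% of the other peaks) and 7 KO members (0.645%, 0.260 to 1.32%, beside 0.359%). All 19 were overlapped by a peak of the other library. The highest, 15.6 kb from the end of Adgre5, which encodes the adhesion receptor CD97, had a pileup of 54548 in WT and 66281 in KO and a fold of 21.9 and 38.2. Those nearest to Gm9631 on chromosome 11 (2824 and 3305) and to Rpusd4 on chromosome 9 (3705 and 4083) followed. Inside Gm35315 on chromosome 5 the fold was 14.5 in WT and 22.8 in KO, and near Usp12, a deubiquitinase gene, it was 13.3 and 14.9. Inside Pacs1, for a protein of Golgi sorting, it was 8.24 and 18.1. The widest members were 2491 bp in WT and 2381 bp in KO at 1 site on chromosome 13 nearest to Gm8674, and 2274 and 2103 bp at a site nearest to Zfp825. Near Vps13d a WT member of 2299 bp met a KO peak of 290 bp.

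Between the genotypes the number of members was nearly equal. The KO to WT ratio was 1.03 (0.947 to 1.12), and for the other autosomal peaks away from gene ends it was 1.02 (1.004 to 1.038). The interval of the members includes 1 and the ratio of the other peaks. At a q of 1e-05 or lower the direction turned, with 144 WT and 111 KO members, a ratio of 0.771 (0.596 to 0.994), while the other peaks numbered 3635 and 2322, and q depends on d. In bins with 30 or more coding genes the ratio was 0.865 (0.673 to 1.11). By chromosome the ratio ran from 0.786 on chromosome 19 (14 WT and 11 KO members) to 2.5 on chromosome 15 (6 and 15, 0.917 to 7.86). On 0 of the 19 autosomes did the interval exclude the overall ratio. Chromosome 13 was the densest, with 12.8 per Mb in WT and 11.2 in KO, and chromosome 15 among the sparsest, with 0.370 and 0.925. WT members covered 599 kb and KO members 494 kb, a ratio of 0.825, beside 0.824 for the other peaks. With each KO peak widened by the difference in d, 103 bp, the ratio was 1.01.

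Most members of either library had no counterpart in the other. Without an overlapping KO peak were 577 of the 1052 WT members (54.8%), beside 53.2% of all autosomal WT peaks. Without an overlapping WT peak were 608 of the 1085 KO members (56.0%), beside 53.9% of all autosomal KO peaks. The members' shares were thus near the background. The overlapped share, 45.2% of WT members (42.1 to 48.2%) and 44.0% of KO members (40.98 to 46.98%), was higher at lower q-values. With each list split into 5 equal classes of q-value, it went from 24.3% in the weakest to 75.6% in the strongest class in WT and from 31.4 to 68.6% in KO. The other autosomal peaks showed a similar rise, from 28.8 to 72.9% in WT and from 28.96 to 66.1% in KO. The rise was thus not particular to the members. Among members with a q of 1e-05 or lower, an overlapping peak of the other library existed for 120 of the 144 in WT (83.3%) and 89 of the 111 in KO (80.2%). This share was not computed for the other autosomal peaks.

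The strongest members without a counterpart were few. In KO the lowest q belonged to a peak 2.67 kb from the end of Tekt4, a sperm flagellum gene, on chromosome 17 from 25451768 to 25451992. It was 225 bp wide with a pileup of 44.5, a fold of 10.1 and a −log10 q of 30.3, and the nearest WT peak was 1938 kb away. A KO peak near Rimbp3, a gene of sperm head formation, had a −log10 q of 10.8 and its nearest WT peak 512 kb away, and one inside the mucin gene Muc3 had 7.48 and 3339 kb. KO peaks inside Slc22a30 and near Olfr876 had 7.20 and 7.01, with WT peaks 14.4 and 4.67 kb away. The peaks at Muc3, Slc22a30, Rimbp3 and Olfr876 were 189, 194, 235 and 334 bp wide, where 189 bp is the smallest possible KO width. Duplicates were kept and no control was used, and whether these peaks are stacks of reads was not tested. In the WT list, whose q-values are not comparable with those of KO because d differs, the corresponding values were 7.33 near 4921509C19Rik, 6.88 near Zfp229, 6.44 near Cyp4x1, 6.37 inside Crisp1 and 6.29 near Klrc1, with the nearest KO peak between 0.924 and 34.1 kb away. The Crisp1 peak was 292 bp wide, the smallest possible in WT.

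**Figure D5:**
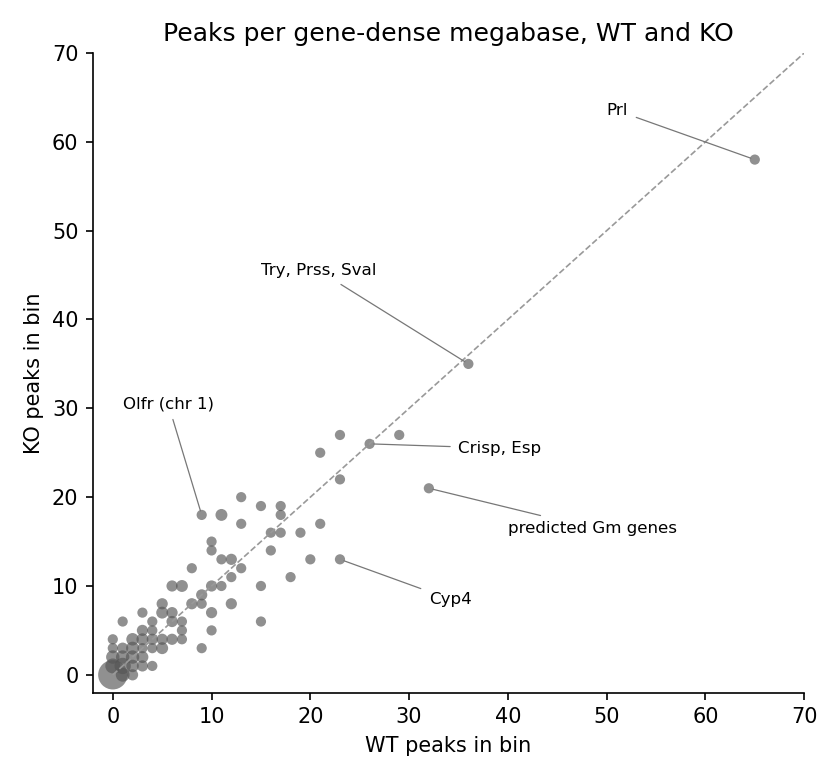
WT members (horizontal axis, peaks) against KO members (vertical axis, peaks) in each of the 404 gene-dense bins, with point size showing how many bins share a position and a dashed line of equal numbers. Most bins lie at or near the line, and the Cyp4 bin (23 and 13) and the predicted gene bin (32 and 21) lie below it.

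Bin by bin, 74 of the 164 bins with members had more in KO, 54 had more in WT and 36 were equal. A difference of 3 or more members toward KO was seen in 23 of the 404 gene-dense bins (5.69%), beside 18.9% of all autosomal bins, and toward WT in 17 (4.21%), beside 14.9%. Bins with fewer than 3 peaks cannot reach such a difference. Among the 70 gene-dense bins with 10 or more members, 28.6% differed by 3 or more toward KO and 22.9% toward WT, beside 29.3 and 23.2% of the 1332 other bins with 10 to 123 peaks.

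Olfactory receptor and predicted gene bins were among the 5 bins with the largest surplus of KO members. The bin on chromosome 1 from 173000001 had 9 WT members (4.12 to 17.1) and 18 KO members (10.7 to 28.4). Its Olfr genes had 7 and 13, of which Olfr1408 had 5 and 11, while the 10 Ifi genes beside them, interferon-inducible DNA sensors of the Ifi200 family, had 0 in both. The Sfi1 bin on chromosome 11 had 11 and 18, as had the Olfr bin on chromosome 11 from 73000001. On chromosome 16 from 88000001 the numbers were again 11 and 18, with Grik1 at 9 in each library and the keratin-associated Krtap genes at 0 and 3. A predicted gene bin on chromosome 14 from 6000001 had 13 and 20.

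The 5 bins with the largest surplus of WT members included the Cyp4 and prolactin arrays. The predicted gene bin on chromosome 14 from 7000001 had 32 WT (21.9 to 45.2) and 21 KO members (12.999 to 32.1), and it adjoins the bin with 13 and 20. The Cyp4 bin had 23 WT (14.6 to 34.5) and 13 KO members (6.92 to 22.2), with Cyp4a12a at 6 and 3, Cyp4a29 at 5 and 3 and Cyp4x1 at 3 and 0, while Cyp4a12b had 3 and 4. On chromosome 2 from 24000001 the number was 15 in WT and 6 in KO. Tbpl2, for an oocyte TBP-related transcription factor, had 7 and 2 in or nearest to it, and Hnmt, for histamine N-methyltransferase, 6 and 3. The prolactin bin had 7 fewer members in KO, as did the bin on chromosome 2 from 148000001, with 20 and 13. An Olfr bin on chromosome 7 from 105000001, with 18 and 11, had the same difference but a smaller total, which kept it out of the 5. In the bin on chromosome 2 from 148000001, 9 WT and 5 KO members were nearest to Foxa2, a transcription factor gene of endoderm, and 8 and 6 to Sstr4. None of them lay inside a gene body. More than 100 kb from any coding gene end were 5 WT and 1 KO of those nearest to Foxa2, and 7 and 5 of those nearest to Sstr4. The WT and KO intervals overlapped in each of these 10 bins.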

How the data were processed

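The data were MACS2 broad peak lists of 2 H3K9me2 CUT&Tag libraries from activated B cells, 1 per genotype named in the labels. The mm10 build is named in the submitters' processing notes, along with Bowtie2 2.4.2, Trim Galore 0.6.6, SAMtools 1.11, deepTools, HOMER, Picard and MACS2, with no roles given. Per the file headers, peaks were called in each library on its own with MACS2 2.2.7.1 at a q cutoff of 0.01, keeping all duplicate tags and using no control. Pileup, as deposited, is a coverage signal counting tags extended to the fragment length d. The p-values and q-values were deposited as −log10, and the fold enrichment deposited by the authors is the ratio of pileup to local background. All of these depend on d, so they were used to describe, rank or filter peaks within a list. With duplicates kept and no control, narrow stacks of reads and places that gather reads whatever the antibody were not removed by the calling.

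Eligible sequence of a bin ran between the outermost genes or peaks of a chromosome, more than 1 kb from coding gene ends, and assembly gaps were not removed from it. Gene positions, strands and promoter sequences came from RefSeq tables of GRCm38.p6. After 348 scaffold genes were left out, 49595 genes remained, 21774 of them protein-coding. No genome sequence was used, so base content and repeats of the peaks themselves were not analysed here. A member was assigned to the shortest coding gene body that held its midpoint, or else to the gene with the nearest end. Overlap needed at least 1 bp. Shares carry exact Clopper-Pearson intervals, counts exact Poisson intervals, and ratios exact binomial-based intervals.

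The text names genes of the 10 fullest bins, of the 5 bins with the largest surplus of KO and of WT members, of the 5 members of highest fold (merged within 10 kb), greatest width and lowest q without overlap in each list, and the 10 genes with most members in their bodies. It also names holders of members from 7 gene lists and counts 14 families by symbol. The symbol starts Hist and Ighv matched 0 autosomal coding genes, so their counts say nothing about histone or immunoglobulin genes. Skint and Gbp had 11 and 10 autosomal coding genes, with 0 in gene-dense bins. Members and lists were chosen with earlier results of these data known. Runs of same-named genes, far members, pseudogenes, promoters and the bin classes were chosen after seeing the data. Alternatives were a stricter q, bins with 20 or 30 genes, 5 kb around gene ends, bins shifted by 0.5 Mb, receptor genes counted, reciprocal overlap of 50%, widened KO peaks, peaks merged within 5 kb and peaks of a pileup of 100 or more left out. Leaving out the prolactin bin or bins of mostly predicted genes, runs of 3 genes, and named runs without the predicted runs inside them were added after seeing the data. Interval, density and overlap functions were tested on simulated data. Python 3.11.15 with pandas 2.3.3, NumPy 2.4.6, SciPy 1.17.1 and Matplotlib 3.10.9 was used.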

Additional observations from a re-analysis of the deposited data

How the results depend on the processing

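No paired analysis was possible because each genotype had 1 library, and for the same reason no library could be left out. Of 84 values recomputed under another setting, 52 kept their direction and lay within the interval of the reported value or, for numbers of members and covered length, within 1.5 times of it, 29 moved further and 3 reversed. At a q of 1e-05 or lower there were 144 WT and 111 KO members, so the KO to WT ratio reversed to 0.771; the KO density ratio was 0.254, the shares overlapped within the strict lists 40.3% of WT and 53.2% of KO members, the shares in gene bodies 32.6% and 38.7%, and the bins without a member 77.5%. With bins of 20 or more coding genes there were 414 WT and 430 KO members, density ratios of 0.160 and 0.163, and 67.7% of bins without a member. With 30 or more genes there were 141 and 122, so the KO to WT ratio reversed to 0.865, with density ratios of 0.147 and 0.125 and 69.0% of bins without a member. Only midpoints more than 5 kb from gene ends gave 24.8% of WT and 25.1% of KO members in gene bodies. Shifted bins gave a WT density ratio of 0.188. With Olfr and Vmn genes counted there were 1543 WT and 1619 KO members and the density ratios were 0.266 and 0.274. Reciprocal overlap of 50% left 30.8% of WT and 29.7% of KO members overlapped. Widened KO peaks reversed the covered ratio to 1.01. Without bins of mostly predicted genes the density ratios were 0.186 and 0.187, and without the prolactin bin the ratios of named runs were 2.75 and 2.43. Fewer bins or peaks entered under the stricter settings, and the cause of the other moves was not tested. Peaks too weak to be called at this depth are not in these lists, so a bin without a member is not shown to lack H3K9me2.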
